A study of Mus musculus with 50 samples.

Results

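The 35 genes described here are markers and regulators of blood and lymphatic endothelium, measured in 50 mammary tumour biopsies. They were taken by symbol from a list, and each was read from the single-gene probe set with the highest mean. Each of the 35 had exactly 1 such probe set, and all 35 lay above the filter on dim probe sets that left 18045 of 22180 genes for testing. The tumours arose spontaneously in females of a backcross, labelled F1Bx, of the hybrid of C57BL/6J and FVB/NJ to FVB/NJ mice carrying MMTV-Erbb2, so the mice differed in genotype and shared the Erbb2 transgene, which the MMTV promoter drives in mammary epithelium. Each biopsy was taken before any drug was given (the series title names doxorubicin, and the protocol text names docetaxel) and was hybridised to 1 Affymetrix array. The labels give 1 group, with no control tissue, batch or later response, and they do not say whether each tumour came from a separate mouse. Comparisons are therefore relations across tumours, and p-values measure only the spread between these tumours.

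Endothelial cells line blood and lymph vessels, and tumours recruit them from nearby tissue. Vascular endothelial growth factor A, encoded by Vegfa and secreted by hypoxic tumour cells, binds the endothelial receptors encoded by Kdr and Flt1. Cells that lead a new sprout, called tip cells, make Dll4, Apln, Esm1 and Angpt2, while the cells behind them keep contact through VE-cadherin and PECAM-1. The TIE receptors and their angiopoietin ligands govern how settled a vessel is, and factors of the ETS and SOX families switch on endothelial genes. In mammary tissue the same genes also mark the vessels of fat and muscle around the gland.

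Sequences upstream of the start site were read from RefSeq (build GRCm38.p6), which held 23 start sites for 18 of the 35 genes. ETS factors such as ERG bind sites built on the letters AGGAAG, and this motif was searched on both strands in the 250 bases before each start. It was present in 11 of the 23 windows (47.8%), and in 29.5% of all 32851 windows of the same length. The SOX core AACAAT was in 4 of the 23 (17.4%) against 9.42% of all windows, and the hypoxia response core ACGTG in 0 of the 23 against 16.6%. The windows below are shown because they belong to genes on which the results turn: Cd34, Kdr and Emcn moved closely with most of the list, and Apln and Esm1 followed Vegfa. Capitals mark AGGAAG or its reverse complement, a match of letters and not a known binding site.
Cd34 (chr1:194938571-194938820, plus strand): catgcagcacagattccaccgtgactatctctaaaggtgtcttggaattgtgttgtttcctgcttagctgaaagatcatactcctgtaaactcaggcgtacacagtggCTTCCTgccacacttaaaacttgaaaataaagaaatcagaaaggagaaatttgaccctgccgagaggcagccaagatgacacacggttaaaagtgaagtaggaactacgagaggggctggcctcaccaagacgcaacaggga
Kdr (chr5:75978456-75978705, minus strand): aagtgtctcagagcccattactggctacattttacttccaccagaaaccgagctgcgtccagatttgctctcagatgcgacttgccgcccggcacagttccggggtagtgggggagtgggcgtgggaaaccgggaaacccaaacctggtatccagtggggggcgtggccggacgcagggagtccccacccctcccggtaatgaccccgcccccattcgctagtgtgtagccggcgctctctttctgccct
Emcn (chr3:137340828-137341077, plus strand): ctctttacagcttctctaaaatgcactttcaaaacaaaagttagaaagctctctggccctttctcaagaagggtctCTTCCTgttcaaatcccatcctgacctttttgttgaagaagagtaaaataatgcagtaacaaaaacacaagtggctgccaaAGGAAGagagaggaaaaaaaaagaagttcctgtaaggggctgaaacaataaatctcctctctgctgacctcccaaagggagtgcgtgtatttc
Apln (chrX:48034854-48035103, minus strand): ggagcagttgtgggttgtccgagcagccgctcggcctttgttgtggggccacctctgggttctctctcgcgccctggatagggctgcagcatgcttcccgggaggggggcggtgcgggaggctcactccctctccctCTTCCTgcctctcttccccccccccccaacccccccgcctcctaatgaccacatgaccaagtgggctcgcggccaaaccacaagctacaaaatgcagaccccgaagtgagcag
Esm1 (chr13:113209409-113209658, plus strand): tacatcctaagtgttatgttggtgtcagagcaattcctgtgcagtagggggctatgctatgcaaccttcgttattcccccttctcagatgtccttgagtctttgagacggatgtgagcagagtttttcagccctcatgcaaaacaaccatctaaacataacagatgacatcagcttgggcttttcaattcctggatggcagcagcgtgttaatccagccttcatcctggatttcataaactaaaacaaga
The Emcn window held 2 matches, the Cd34 and Apln windows 1 each, and the Kdr and Esm1 windows none of these letters.

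Deposited values ran from 2.53 to 13.65 on the log2 scale, and the median over arrays of the mean correlation with the other arrays was 0.978. It was 0.916 for mid79, 0.931 for mid60 and 0.954 for mid100, and at least 0.967 in the other 47 arrays. No pair of arrays was identical, and the number of arrays limits the precision. Results are given over all 50 tumours and over the 48 without mid79 and mid100. An RNA level in a whole biopsy cannot tell fewer endothelial cells from less RNA per cell.

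The 35 genes varied more between tumours than the typical gene. Their median SD was 0.55 log2 over 50 tumours and 0.38 over 48, beside 0.23 and 0.21 for all genes tested, and 34 of the 35 were above the median gene (27 of 35 over 48 tumours). Leaving out the lowest and the highest 5% of tumours, 26 of 35 genes differed at least 2-fold (22 of 35 over 48), as did 23.8% of all genes (20.8%). The median span of the 35 was 2.74-fold over 50 tumours and 2.16-fold over 48.

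Among the 11 junction and surface genes, Pecam1, which encodes the adhesion molecule CD31, ran from 6.69 in mid115 through a median of 7.61 to 10.44 in mid79 (log2). Cdh5, which encodes VE-cadherin of the junctions, ran from 7.66 through 8.72 to 11.61 in the same lowest and highest tumours. Cd34, a surface sialomucin, ran from 6.43 through 7.36 to 10.50, and its highest tumour was mid100. In all 3 genes mid79 and mid100 lay above each of the other 48 tumours, whose highest values were 9.01, 10.05 and 8.48. Eng, the co-receptor endoglin, ran from 6.69 through 7.98 to 10.32, and Emcn, the mucin-like endomucin, from 6.51 through 7.48 to 10.10, both highest in mid100. Plvap, which forms the diaphragms of fenestrated vessels, ran from 6.57 through 7.64 to 10.21 in mid100, with 8.72 in mid9 next and 8.41 in mid79. Plvap in mid79 was thus within the range of the 48 tumours. Cldn5, a tight junction claudin, showed the reverse: 9.58 in mid79 and at most 5.67 elsewhere, with 5.60 in mid100 and a median of 5.12. The remaining 4, the surface proteins Esam, Ecscr and Icam2 and the guidance receptor Robo4, were highest in mid79, at 7.09 (Icam2) to 8.57 (Robo4), and second highest in mid100.

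**Figure D1:**
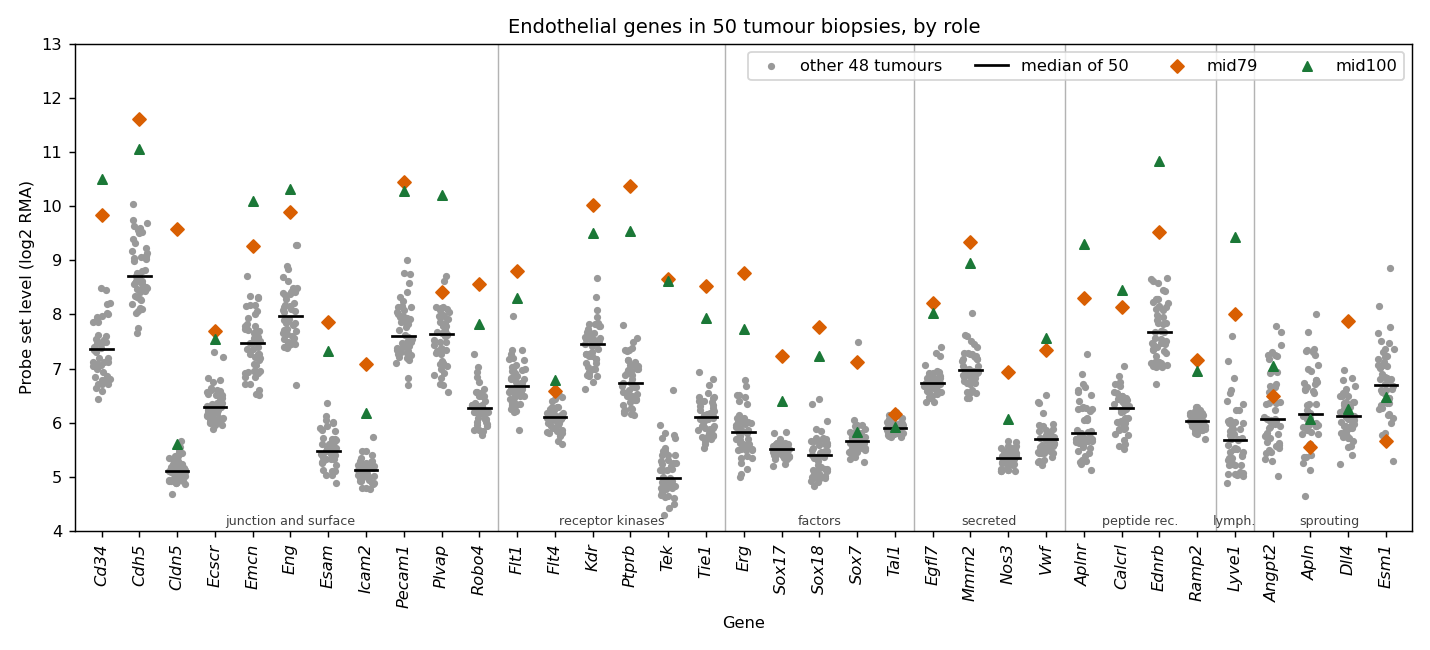
Level of each of the 35 genes (vertical axis, log2 RMA value of its probe set) in the 50 tumours, with genes on the horizontal axis grouped by role; grey points are 48 tumours, black bars the median of 50, diamonds mid79 and triangles mid100. Either mid79 or mid100 is the highest point in 30 of the 35 genes, but not in Sox7, Tal1, Apln, Angpt2 and Esm1.

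Among the receptor kinases and their phosphatase, Kdr, which encodes the main VEGF-A receptor, ran from 6.62 in mid115 through 7.46 to 10.02 in mid79, with 9.51 in mid100. Tek, which encodes the angiopoietin receptor TIE2, had a median of 4.99 and reached 8.65 in mid79 and 8.62 in mid100, while the highest of the other 48 tumours was 6.60. Ptprb, which encodes the phosphatase VE-PTP that acts on TIE2, had a median of 6.74 and reached 10.37 in mid79 and 9.55 in mid100. Both tumours stood clear of the rest in these 3 genes. Flt1, a VEGF receptor that also acts as a decoy, ran from 5.86 through 6.69 to 8.80, and Tie1, the partner of TIE2, from 5.54 through 6.11 to 8.53, both highest in mid79. Flt4, the VEGF-C receptor of lymphatic endothelium, varied little, from 5.60 through 6.11 to 6.78 in mid100 (SD 0.23, close to the median gene).

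The transcription factors were less alike. Erg, an ETS factor, ran from 4.99 in mid115 through 5.83 to 8.76 in mid79, and Sox18, a SOX factor of vessel and lymphatic growth, from 4.83 through 5.40 to 7.76. Sox17, a factor of arterial endothelium, lay between 5.20 and 5.82 in 48 tumours and at 7.24 in mid79 and 6.40 in mid100. Sox7 had its highest value, 7.49, in mid60, followed by 7.13 in mid79, and was at 5.83 in mid100. Tal1, shared by endothelial and blood-forming cells, stayed between 5.74 and 6.19 over all 50 tumours (SD 0.11). Its SD was below that of all but 3.45% of the genes tested.

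Of the 4 secreted proteins and enzymes, Mmrn2, an extracellular ligand of endothelial lectins, ran from 6.45 in mid115 through 6.97 to 9.34 in mid79. Egfl7, a matrix protein of vessels, ran from 6.38 through 6.74 to 8.21, and Nos3, the endothelial nitric oxide synthase, from 5.10 through 5.34 to 6.93, both highest in mid79. Vwf, the von Willebrand clotting factor, was highest in mid100 at 7.57, followed by 7.34 in mid79 and 6.52 in mid60, above a median of 5.70. All 4 had both mid79 and mid100 above the other 48 tumours.

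Of the peptide hormone receptors, Ednrb, an endothelin receptor also made by melanocytes and glia, ran from 6.72 through 7.69 to 10.84 in mid100, with 9.53 in mid79. Aplnr, the apelin receptor, ran from 5.13 through 5.80 to 9.30 in mid100 and 8.30 in mid79. Calcrl and Ramp2 encode the subunits of an adrenomedullin receptor. Calcrl had a median of 6.27 and reached 8.46 in mid100, whereas Ramp2 had a median of 6.03 and reached 7.16 in mid79. Lyve1, a hyaluronan receptor of lymphatic vessels also made by some macrophages, had the widest spread of the 35 (SD 0.84), from 4.89 through 5.69 to 9.43 in mid100. It was at 8.0 in mid79 and 7.60 in mid60.

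The 4 sprouting genes had a different order of tumours. Apln, the peptide apelin, ran from 4.65 in mid115 through 6.16 to 8.0 in mid177, and was at 5.55 in mid79 and 6.07 in mid100. Angpt2, the ligand that opposes TIE2 signalling in many settings, ran from 5.02 in mid115 through 6.07 to 7.78 in mid177, with 6.49 in mid79. Esm1, the tip cell proteoglycan endocan, ran from 5.30 in mid2 through 6.69 to 8.86 in mid114, and was at 5.67 in mid79. Dll4, a Notch ligand, ran from 5.23 in mid101 through 6.12 to 7.87 in mid79, followed by 6.97 in mid114. Only Dll4 of the 4 was highest in mid79, and Apln and Esm1 were below their medians there.

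Across tumours the 35 genes moved together. The mean Pearson r over their 595 pairs was 0.623 over 50 tumours and 0.470 over 48 (Spearman's rho, 0.490 and 0.453), beside 0.0059 and 0.0038 for all genes tested. These are descriptions: all genes of 1 array share its RNA and its hybridisation. Pecam1 had the highest correlation with the mean standardised level of the other 34 genes, 0.974 (0.963 over 48), followed over 48 tumours by Cdh5 at 0.944, Mmrn2 at 0.885, Erg at 0.883, Cd34 at 0.875 and Kdr at 0.873. In all, 15 of 35 genes reached 0.8 over 48 tumours. The correlation was lower without mid79 and mid100 for 31 of the 35 genes. It dropped from 0.750 to 0.263 for Ramp2, from 0.806 to 0.395 for Sox17 and from 0.761 to 0.396 for Vwf. It was higher without them for Plvap, Apln, Angpt2 and Esm1, in Apln 0.580 against 0.227. Tal1 had the lowest value, -0.11 over 48 tumours.

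**Figure D2:**
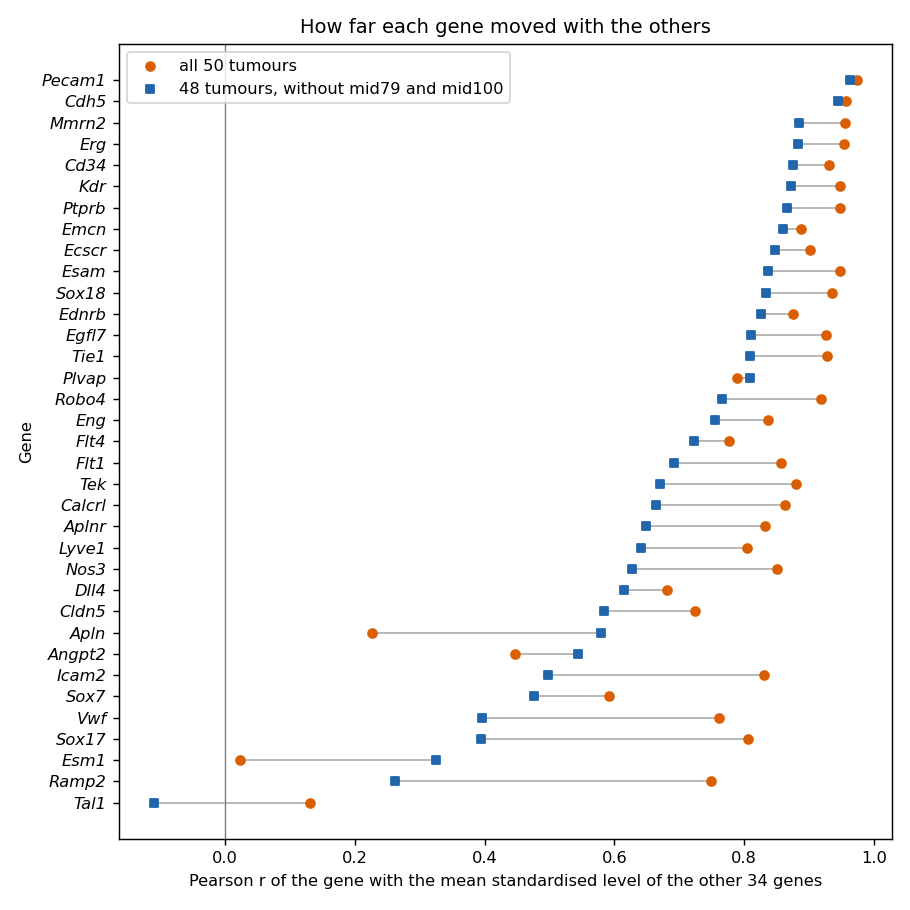
Pearson r of each gene (vertical axis) with the mean standardised level of the other 34 genes (horizontal axis), over all 50 tumours (circles) and over 48 without mid79 and mid100 (squares). Pecam1 and Cdh5 stay above 0.94 in both, Ramp2, Sox17 and Vwf drop below 0.4, and Apln and Esm1 move up.

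Over 48 tumours the closest pair was Pecam1 with Cdh5 (r = 0.934), and the next was Apln with Angpt2 (r = 0.899). The mean r among Apln, Angpt2, Esm1 and Dll4 was 0.751 over 48 tumours and 0.640 over 50, while the r of their mean standardised level with that of the other genes was 0.498 and 0.330. Robo4 was close to them too, with r = 0.764 with Angpt2, 0.761 with Dll4, 0.736 with Apln and 0.696 with Esm1. Tek and Aplnr were another close pair (r = 0.879). Ptprb had r = 0.812 with Aplnr and 0.796 with Tek, and was closer to Pecam1 (0.879), Mmrn2 (0.850) and Cdh5 (0.828). Aplnr and Tek had a negative r with Esm1 (-0.25 and -0.20) and values from -0.06 to 0.104 with Apln, Angpt2 and Dll4. Ptprb was positive with all 4 sprouting genes, from 0.109 (Esm1) to 0.350 (Dll4). The lowest of the 595 values was that of Vwf with Esm1, -0.39. The Calcrl and Ramp2 subunits gave r = 0.205, and Lyve1 with Flt4, the lymphatic genes of the list, 0.409.

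**Figure D3:**
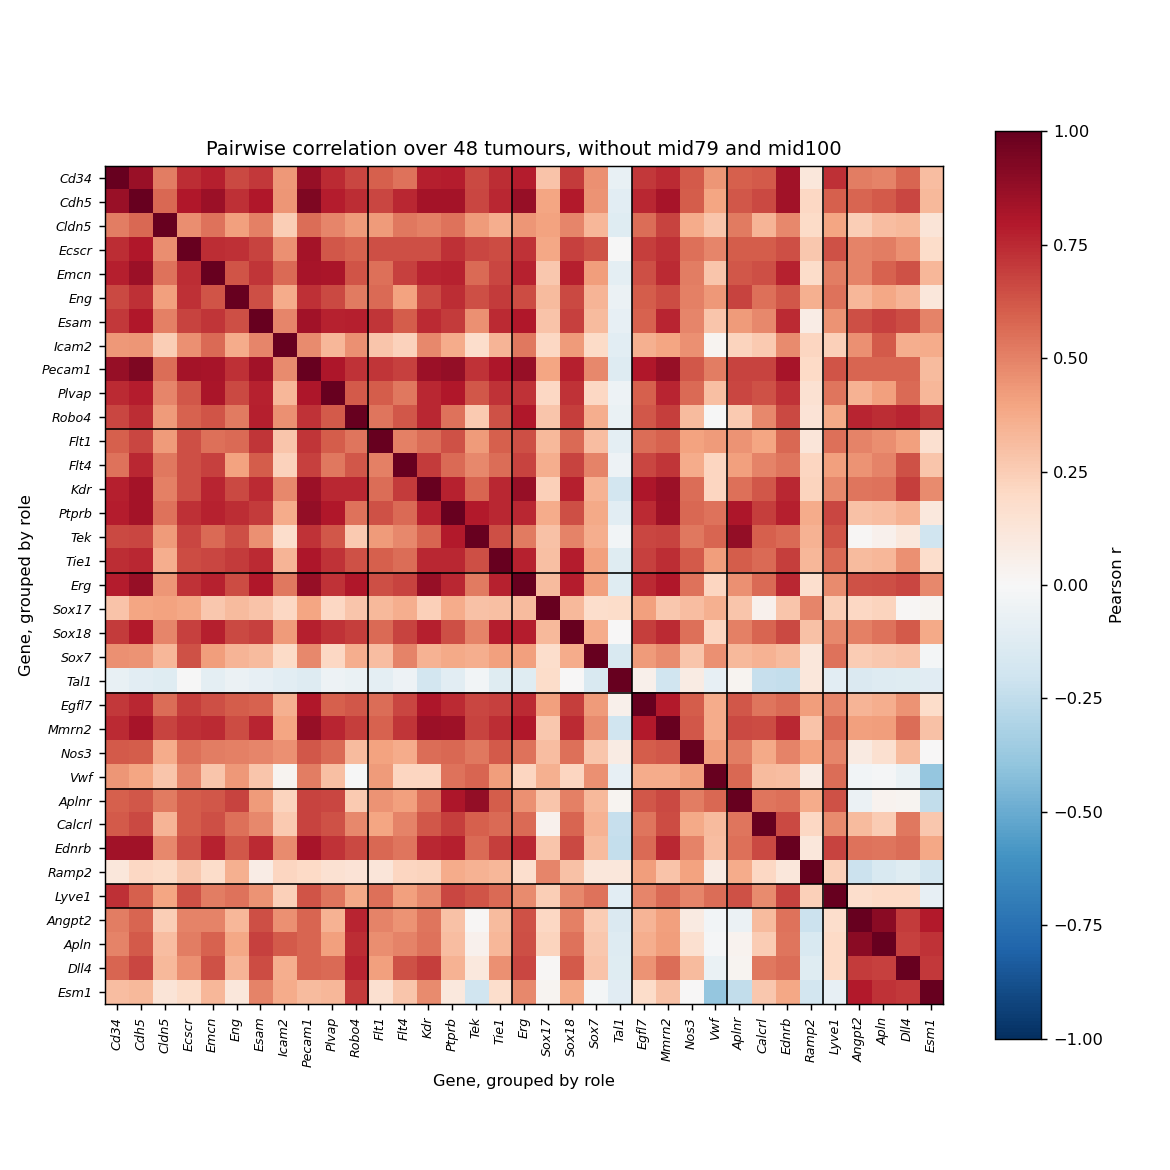
Pearson r (colour) for every pair of the 35 genes over 48 tumours, with genes on both axes grouped by role and lines between the roles. The junction, receptor kinase and secreted genes are mostly red with each other, from -0.003 for Robo4 with Vwf to 0.934 for Pecam1 with Cdh5. The 4 sprouting genes at the lower right are red with each other (mean r = 0.751). Their mean r with the other roles runs from 0.123 (Lyve1) to 0.476 (junction and surface). Tal1 is pale throughout.

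In mid79, 29 of the 35 genes were above all 48 tumours other than mid79 and mid100, as were 11.3% of all genes tested. The median level there was 3.93-fold the median of the 48, from 0.473-fold for Esm1 to 22.2-fold for Cldn5. In mid100, 28 of the 35 were above all 48 (6.28% of all genes), with a median of 3.61-fold and a range from 0.829-fold for Esm1 to 13.9-fold for Lyve1. Markers of other tissues stood apart in the same biopsies. In mid79 all 9 measured adipocyte genes were above the other 47 tumours (mid60 left aside), with a summed log2 level of 97.6 against 46.8 to 60.1. The 8 luminal epithelial genes summed to 53.3 against 69.7 to 77.2 there, and the 20 proliferation genes to 115.5 against 135.1 to 176.2. In mid100 the 10 skeletal muscle genes summed to 105.9, just above the 50.2 to 104.4 of the 47, and 8 of 10 macrophage genes were above the 47, with a sum of 97.9 against 69.4 to 90.9. The adipocyte sum of mid100 was 60.7. The 10 pericyte and smooth muscle genes summed to 90.2 in mid79 and 92.3 in mid100, against 72.7 to 87.3 in the 47. Of these 10, 5 in mid79 and 3 in mid100 were above all 47. The part of these tissues in the endothelial levels of mid79 and mid100 was not tested. At the other end mid115 was the lowest tumour for 10 of the 35 genes, Pecam1, Cdh5 and Kdr among them.

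The level of Vegfa was taken first as a predictor, since it is the ligand that drives sprouting. Vegfa ran from 8.67 in mid87 through 9.75 to 11.17 in mid131 (SD 0.62). Of the 35 genes only 3 sprouting genes were called with it over 50 tumours. Angpt2 rose by 0.49 log2 per SD of Vegfa (SE 0.067, n = 50, limma adjusted p = 4.03e-06), which is 1.40-fold. Apln rose by 0.49 (SE 0.073, limma adjusted p = 2.17e-05) and Esm1 by 0.40 (SE 0.074, limma adjusted p = 0.00114). In mid177 Vegfa was the second highest, and Apln and Angpt2 were the highest. In mid115 Vegfa was the fifth lowest, and Apln and Angpt2 were the lowest. Pecam1, Cdh5 and Kdr, not called with Vegfa, were also lowest in mid115. The slope of Dll4 was 0.19 (SE 0.057, limma adjusted p = 0.182). The receptor genes gave smaller slopes, Flt1 at 0.11 (SE 0.072, limma adjusted p = 0.858), and whether slopes differed between genes was not tested. Of the 35 genes 3 were called higher, beside 0.443% of all genes, and 0 were called lower, beside 0.00554%, with 5 at an unadjusted p under 0.05 in either direction. Without mid79 and mid100 the same 3 were called higher (0.549% of all genes) and 0 lower (0.0333%), at slopes of 0.52, 0.51 and 0.42, with 11 at an unadjusted p under 0.05. With the adipocyte and skeletal muscle scores as covariates Robo4 was called too (slope 0.15, limma adjusted p = 0.0368). The share of all genes called in that setting is not given here. Without mid131 and mid177, the tumours farthest from the Vegfa median, the slopes were 0.42, 0.42 and 0.36 (limma adjusted p = 0.000291, 0.00096 and 0.0156).

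**Figure D4:**
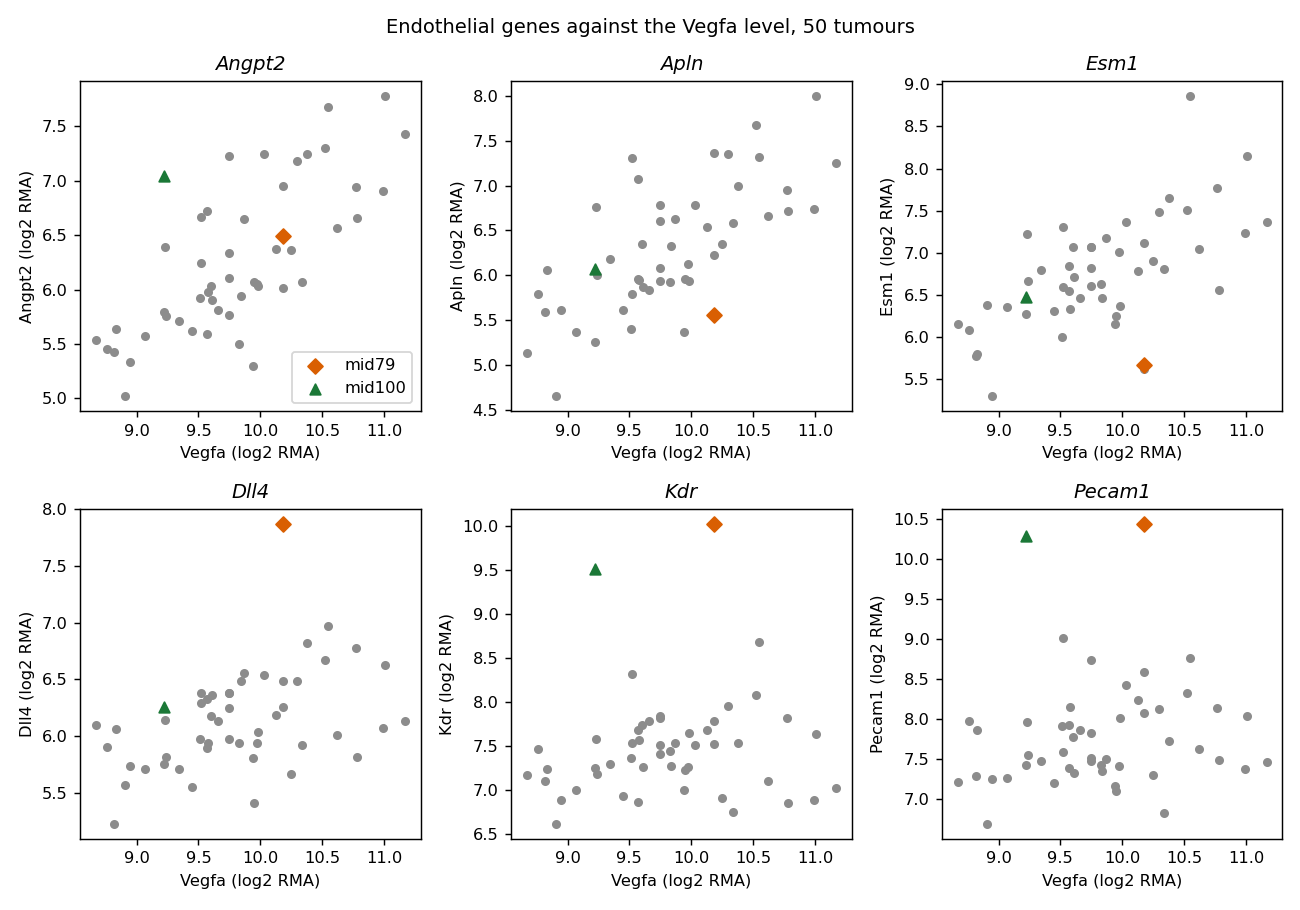
Level of 6 genes (vertical axes, log2 RMA) against the level of Vegfa (horizontal axes, log2 RMA) in 50 tumours; the diamond is mid79 and the triangle mid100. Angpt2, Apln and Esm1 climb across the range of Vegfa from 8.67 to 11.17, while Kdr and Pecam1 show no called slope and have mid79 and mid100 far above the other points.

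The hypoxia score, the mean standardised level of 17 genes such as Car9, Slc2a1 and Pgk1, gave the same 3 genes. Apln rose by 0.52 log2 per SD of the score (SE 0.069, limma adjusted p = 1.07e-06), Angpt2 by 0.44 (SE 0.074, limma adjusted p = 0.000167) and Esm1 by 0.41 (SE 0.073, limma adjusted p = 0.00035). That is 3 of 35 called higher, beside 0.688% of all genes, and 0 lower, beside 0.111%, with 8 at an unadjusted p under 0.05. Without mid79 and mid100 Dll4 joined them at 0.19 (SE 0.047, limma adjusted p = 0.0458), so that all 4 sprouting genes were called, beside 0.527% of all genes higher and 0.0111% lower. In mid79, the tumour with the highest Dll4, the hypoxia score was the lowest of the 50. With the adipocyte and skeletal muscle scores as covariates 7 genes were called higher: these 4 and Robo4 (slope 0.16, limma adjusted p = 0.0163), Esam (slope 0.16, limma adjusted p = 0.032) and Flt1 (slope 0.17, limma adjusted p = 0.0487). The share of all genes called with these covariates is not given here, so the count of 7 has no background beside it. Vegfa itself rose by 0.50 per SD of the score (SE 0.052, limma adjusted p = 2.15e-09), so the Vegfa and hypoxia results are not independent of each other. The placental growth factor gene Pgf, another ligand of FLT1, rose by 0.71 (SE 0.108, limma adjusted p = 2.08e-05).

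With the fibroblast and matrix score, the mean standardised level of 18 genes such as Col1a1, Dcn and Postn, most of the list rose. Of the 35 genes 30 were called higher, beside 12% of all genes, and 0 lower, beside 14.4%, with 31 at an unadjusted p under 0.05. The 5 that were not called were the 4 sprouting genes and Tal1. The median slope of the 35 was 0.37 log2 per SD, beside -0.02 for all genes. Pecam1 rose by 0.59 (SE 0.058, limma adjusted p = 7.79e-12), Eng by 0.54 (SE 0.056, limma adjusted p = 4.27e-11) and Lyve1 by 0.67 (SE 0.071, limma adjusted p = 5.36e-11). Without mid79 and mid100 the count was 27 (8.37% of all genes) with 0 lower (5.34%), and the median slope was 0.21. Icam2, Ramp2 and Sox17 lost their calls there. Tek, at 0.36 (SE 0.037, limma adjusted p = 2.51e-11), had the smallest adjusted p of the 35 over those 48 tumours. All 6 receptor kinase genes were called in both sets of tumours, and 11 of 11 and then 10 of 11 junction and surface genes. Of the sprouting genes, Esm1 had a slope of -0.10 (SE 0.092, limma adjusted p = 0.446) and Angpt2 of 0.19 (SE 0.092, limma adjusted p = 0.13). The score was the second highest in mid100 and the third highest in mid79, and markers of several other cell types moved with it. Over 50 tumours 10 of 10 macrophage, 8 of 10 pericyte and smooth muscle, 8 of 9 skeletal muscle and 7 of 9 adipocyte genes were called higher, and 6 of 8 luminal epithelial genes lower. Over 48 tumours these counts were 10, 7, 2 and 4 higher and 1 lower. With the adipocyte and skeletal muscle scores as covariates, 23 of the 35 genes were called higher. The count was also 23 without mid79, mid100 and mid60. For both of these settings the share of all genes called is not given here. The part of the macrophage, pericyte and luminal epithelial cells in the result was not tested.

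**Figure D5:**
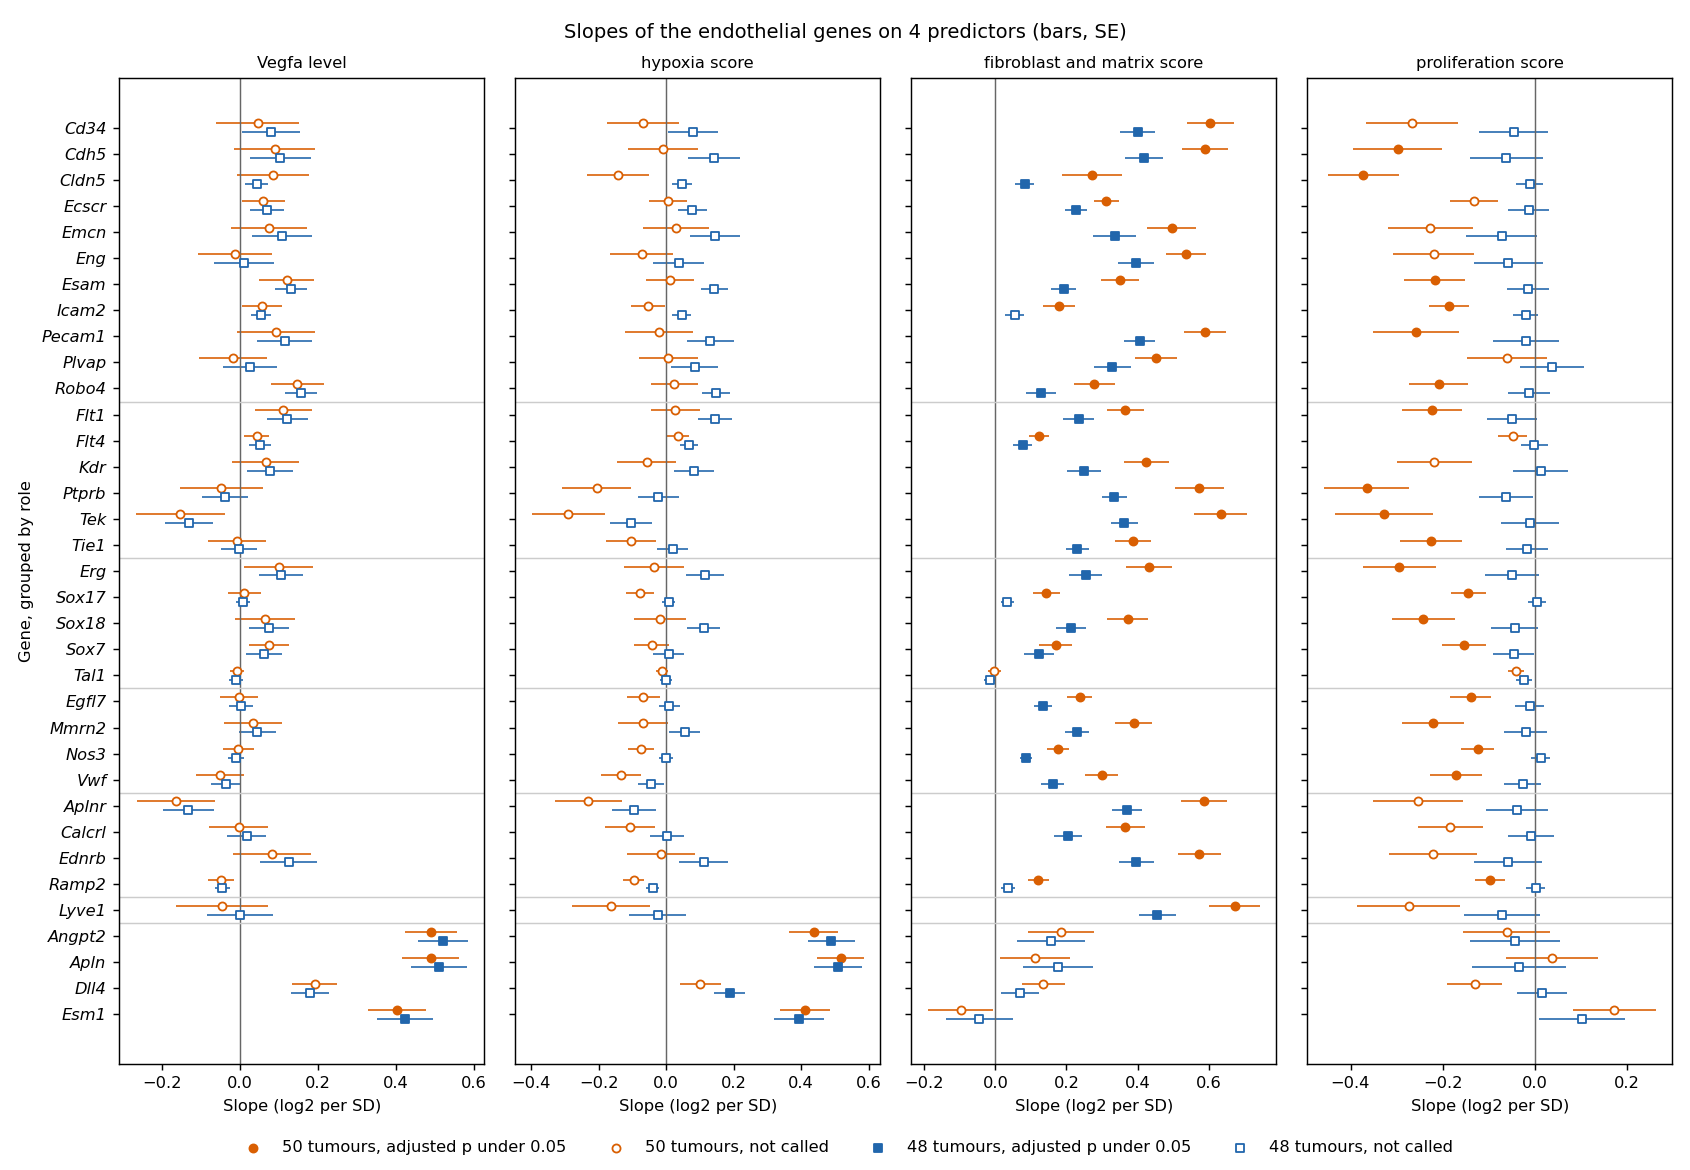
Slope of each of the 35 genes (vertical axis, grouped by role) on 4 predictors (panels; horizontal axes in log2 per SD of the predictor), with bars for the SE, circles for 50 tumours and squares for 48 without mid79 and mid100; filled symbols have a limma adjusted p under 0.05. Angpt2, Apln and Esm1 are filled for Vegfa and hypoxia, most other genes are filled for the fibroblast and matrix score, and for proliferation the 19 filled circles have no filled square.

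With the proliferation score, the mean standardised level of 20 genes such as Mki67 and Top2a, 19 of the 35 genes were called lower, beside 7.99% of all genes, and 0 higher, beside 11.1%, with 30 at an unadjusted p under 0.05. Cldn5 fell by 0.37 log2 per SD (SE 0.077, limma adjusted p = 0.00042) and Icam2 by 0.19 (SE 0.044, limma adjusted p = 0.00214). None of these calls remained without mid79 and mid100, where 0 of 35 were called lower (1.61% of all genes) and 0 higher (4.02%), with 0 at an unadjusted p under 0.05. There Cldn5 had a slope of -0.01 (SE 0.029). The count was also 0 without mid79 and mid2, and with ranks of the score. Markers of other cell types moved with the same score over 50 tumours: 9 of 9 adipocyte genes were called lower, with a median slope of -0.48 beside -0.22 for the 35, and 6 of 8 luminal epithelial genes higher. Over 48 tumours 0 of either list were called by limma, with 0 and 1 at an unadjusted p under 0.05. With the adipocyte and skeletal muscle scores as covariates, 0 of the 35 genes were called lower and 0 higher. The share of all genes called is not given here for the covariates, the ranks or the set without mid79 and mid2. The part of the luminal epithelial cells in the result was not tested. Both smaller sets left out mid79, which had the lowest proliferation score of the 50, -3.96.

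Across tumours 16 pairs of a ligand and its receptor with at least 1 member were compared by Pearson's r with two-sided permutation tests, adjusted over the 16 pairs by Benjamini-Hochberg. Of these 8 were called positive over 50 tumours, 7 by Spearman's rho, and 5 without mid79 and mid100. Each test was against no relation, while the genes of the list averaged r = 0.623 with each other over 50 tumours and 0.470 over 48. Cd93 and Clec14a, from outside the list, had mean r of 0.728 and 0.669 with it over 50 (0.63 and 0.45 over 48). Whether the called pairs were closer than other pairs of endothelial genes was not tested. Mmrn2 rose with the genes of both its lectin receptors, Cd93 (r = 0.858, permutation p = 1e-05, the smallest the permutations can give, adjusted p = 5.33e-05, rho = 0.809) and Clec14a (r = 0.842, rho = 0.706, each permutation p = 1e-05), and still did so over 48 tumours (r = 0.798 and 0.644). Edn1, the endothelin peptide gene, rose with Ednrb (r = 0.672, rho = 0.493, adjusted permutation p = 8e-05 and 0.00208, and r = 0.406 over 48). Vegfd, a lymphatic growth factor gene, rose with Flt4 (r = 0.611, rho = 0.385, adjusted permutation p = 5.33e-05 and 0.0162, and r = 0.384 over 48). That pair was no longer called without mid60 as well (r = 0.342, adjusted permutation p = 0.0508). Dll4 rose with the gene of its receptor Notch1 (r = 0.342, rho = 0.436, adjusted permutation p = 0.0322 and 0.00664, and r = 0.405 over 48). Vegfc with Flt4 (r = 0.509, rho = 0.255), Angpt1 with Tek (r = 0.392, rho = 0.424) and Adm with Calcrl (r = 0.334, rho = 0.227) were called over 50 tumours (adjusted permutation p = 0.000864, 0.0157 and 0.0366) and not over 48 (0.0501, 0.0686 and 0.252). All 8 were also called once the 2 tumours lying farthest from the first gene's median were dropped.

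Several best known pairs were not called by r. Vegfa gave r = 0.105 with Kdr (rho = 0.166, adjusted permutation p = 0.535 and 0.331). With Flt1 it gave r = 0.213 (adjusted permutation p = 0.2), although the pair was called by rank (rho = 0.327, adjusted permutation p = 0.0478). Over 48 tumours Vegfa gave r = 0.186 with Kdr and 0.321 with Flt1 (adjusted permutation p = 0.252 and 0.0501), neither called. Apln gave r = -0.08 with Aplnr (rho = -0.07, adjusted permutation p = 0.626 and 0.65), and Angpt2 gave 0.132 with Tek (rho = -0.02, adjusted permutation p = 0.493 and 0.877). Over 48 tumours these r were 0.034 and 0.008. The highest Apln and Angpt2 levels were in mid177, and the highest Aplnr and Tek levels in mid100 and mid79. The other 4 pairs that were not called were Pgf with Flt1, Adm with Ramp2, Edn3 with Ednrb, and Dll4 with Notch4, with r from -0.25 to 0.221. Over 48 tumours their r ran from -0.23 to 0.329, the highest for Pgf with Flt1 (adjusted permutation p = 0.0501). Of these, Pgf with Flt1 was called positive without mid79, mid100 and mid60 (r = 0.387, adjusted permutation p = 0.0229), and Edn3 with Ednrb negative after a second quantile normalization (r = -0.31, adjusted permutation p = 0.0447).

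Among genes outside the list, the 10 with the highest mean r with the 35 over 48 tumours were Plxnd1 (0.647), Ptprm (0.638), Cd93 (0.635), Adgrl4 (0.616), Nrp1 (0.616), Hspg2 (0.611), Ldb2 (0.607), Nid2 (0.598), Sparc (0.595) and St8sia4 (0.594). Plxnd1 encodes a semaphorin receptor, and Hspg2 and Nid2 encode basement membrane proteins. These correlations are descriptions. Of 18 other endothelial genes 17 were measured. With the fibroblast and matrix score 14 of the 17 were called higher (12 of 17 over 48 tumours), and with Vegfa 0 of 17 were called by limma in either set, with 0 and 5 at an unadjusted p under 0.05. Gja4 and Gja5, connexin genes of arterial endothelium, and Sele, the selectin of inflamed vessels, had mean r of 0.0257, 0.0944 and 0.0912 over 48 tumours. Over 50 these were 0.55, 0.142 and 0.126, so that the value of Gja4 rests on mid79 and mid100. Exoc3l2 had 0.07 over 48 (0.152 over 50) and Ackr1 0.158 (0.620). Gja4, Gja5, Sele and Ackr1 had mean levels of 5.16, 4.99, 4.58 and 4.12 log2, under the 50th percentile of probe sets (5.27). Clec14a and Selp were under it too, at 4.91 and 5.01, with mean r of 0.451 and 0.348 over 48 tumours. Exoc3l2 was at 6.43. The part of low signal in these r was not tested. The highest of these 17 over 48 tumours were Cd93, Adgrl4 and S1pr1 (0.589). Of 26 genes of the VEGF, angiopoietin, Notch and BMP pathways, 18 were called higher and 2 lower with the fibroblast and matrix score (12 and 3 over 48). Plxnd1, Nrp1 and Nrp2 (0.548) had the highest mean r of the 26 with the 35 genes over 48 tumours. Nrp1, a VEGF co-receptor, rose by 0.65 log2 per SD (SE 0.054, limma adjusted p = 2.81e-14). With Vegfa 0 of the other 25 were called by limma over 50 tumours, with 4 at an unadjusted p under 0.05, and 1 over 48: Pdgfb, which recruits pericytes, rose by 0.21 (SE 0.047, limma adjusted p = 0.0148).

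Markers of lymphatic vessels other than Lyve1 and Flt4 differed in how far they followed the list. Prox1, the lymphatic identity factor, Mmrn1 and Reln had mean r of -0.02, 0.0619 and 0.179 with the 35 genes over 48 tumours. Pdpn, which fibroblasts also make, had 0.445, above 97.9% of all genes. Together these 4 genes, Pdpn included, summed to a median of 20.1 log2 (18.8 to 22.6) in the 47 tumours other than mid79, mid100 and mid60. The sum was 20.6 in mid79, 23.1 in mid100 and 23.6 in mid60, and it gives no level per gene. The part of low signal in the r of these genes was not tested. Among genes of other cells, the closest were Pdgfrb (0.535), Rgs5 (0.470) and Mcam (0.467) of pericytes, and Adgre1 (0.503), Mrc1 (0.501) and Csf1r (0.484) of macrophages. For fibroblasts they were Col6a1 (0.558), Col6a2 (0.547) and Fap (0.537). Over 48 tumours the mean standardised level of the fibroblast and matrix list had r = 0.774 with that of the 35 genes (0.752 over 50), that of the pericyte and smooth muscle list 0.740 (0.839), that of the macrophage list 0.702 (0.713), that of the adipocyte list 0.457 (0.754) and that of the platelet list 0.414 (0.444). The skeletal muscle list had 0.283 (0.443), the luminal epithelial list -0.20 (-0.66) and the Schwann cell and melanocyte list -0.40 (-0.55).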

How the data were processed

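RNA from 50 tumour biopsies was measured on 1 Affymetrix array each. The deposited values are log2 expression values that the authors made by RMA, per the submitters' processing notes, which also name the build mm8. The RMA version and any batch are not given in the sources used here. Of 34472 probe sets, 23521 name 1 gene, 1814 several and 9137 none in the platform annotation, and 23328 were matched to current symbols by Entrez ID. Per gene the single-gene probe set with the highest mean was used, and genes with a mean under the 25th percentile (4.09 log2) were left out, which kept 18045.

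Each gene was fitted on a standardised predictor with limma 3.58.1 (lmFit and eBayes with trend, R 4.3.3), and p-values were adjusted by Benjamini-Hochberg over all genes tested, without the predictor's own genes. A gene was called under an adjusted p of 0.05. Scores are means of standardised genes. The fit was tested on simulated data. Pairs were tested with 100000 permutations (numpy 2.4.6), so arrays are the replicates, with no technical repeat. The alternatives left out tumours, changed the filter, the probe set, the normalization or the predictor's scale, weighted arrays or added covariates. Named genes are the 35, the paired genes, the predictors, the 10 outside genes with the highest mean r with the 35 and the 3 highest of each comparison list, some of which are given only as counts or scores. Gja4, Gja5, Sele, Selp, Exoc3l2, Ackr1, Prox1 and Pdgfb were named after their values were seen. The members and lists were chosen with earlier results of these data known. Promoter windows come from RefSeq, GRCm38.p6, and 17 of the 35 genes were not matched there.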

Additional observations from a re-analysis of the deposited data

How the results depend on the processing

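The counts of endothelial genes called higher with Vegfa, and higher with the fibroblast and matrix score, stayed within 1.5 times their main value under each of the 11 alternatives run, the latter between 23 and 30. The count called lower with the proliferation score, 19, went to 0 without mid79 and mid100, without these and mid60, without mid79 and mid2, with ranks of the score, with array weights, and with the adipocyte and skeletal muscle scores as covariates. The count called higher with the hypoxia score, 3, was 7 with those covariates. The count of ligand and receptor pairs, 8, was 5 without mid79 and mid100, and 5 without mid60 as well, of which 4 were among the 8 and Pgf with Flt1 was called there and not over 50 tumours. After a second quantile normalization 9 were called, these 8 and Edn3 with Ednrb, which was negative. The slopes on Vegfa lay between 0.42 and 0.53 for Angpt2, between 0.42 and 0.52 for Apln and between 0.36 and 0.44 for Esm1, and all were called in every setting run. The slope of Dll4 on the hypoxia score lay between 0.10 and 0.20 and was called in 3 of the 11 alternatives. The median SD of the 35 genes was 0.55 log2, and 0.38 without mid79 and mid100. No paired analysis was possible because the labels give 1 group. Without groups or repeat arrays, the spread between tumours cannot be told apart from the spread between arrays.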
